A study of Caenorhabditis elegans with 2 samples.

Results

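The regions described here are strong ChIP-seq peaks of the mRNA export adaptor ALY-1 that lie inside introns of autosomal protein-coding genes, away from promoters, in early embryos of the nematode Caenorhabditis elegans. They were chosen by signal and position from a candidate list of 30000 peaks called on both replicates together. Of the 3000 peaks with the highest signal, 2341 lay on the 5 autosomes and 2083 of these had a summit over 250 bp from any tRNA, snoRNA, snRNA or rRNA gene. A promoter window, reaching 1000 bp before and 200 bp past the 5′ end of each protein-coding gene, left 1436 of these. Of those, 1021 lay in a protein-coding gene, and the summits of 398 of them touched no annotated exon. These 398 strong intron peaks, of 30000 in all, are the members. Their signal chose them, so it is given below as a description and was not tested.

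The assay was ChIP-seq on sonicated chromatin, with an antibody that the labels describe as anti-GFP and list in another field under aly-1, from hermaphrodite embryos collected 0 hours after synchronization by bleaching. The single group held 2 biological replicates of strain OP502, whose genotype is unc-119(tm4063) III; wgIs502. The inserted transgene makes ALY-1 with a C-terminal GFP-FLAG tag, and no untagged or untreated group was analysed here. The embryos are whole organisms, so peaks of all their cells are mixed, and the depth of the libraries is unknown.

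ALY-1 is an ALY/REF protein, one of the RNA-binding adaptors that join nascent transcripts with the TREX complex and hand spliced mRNA to the export receptor. ChIP of such a protein recovers DNA near the protein, also when RNA or other proteins bridge the contact. Most worm introns are short, and long introns, often the first of a gene, are known for holding enhancers, alternative starts and small RNA genes.

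The sequences of the 6 strongest members on chromosomes II to V follow, to show what lay under the summits. Each window holds the summit base and 50 bases on each side, on the forward strand of ce11. Capitals mark motifs of a list of 9 described further on. The T24B8.3 window has a GC content of 66.3%, and the window in unc-104, which encodes the kinesin that carries synaptic vesicle precursors, has 52.5%.
T24B8.3, chrII:9060598-9060698: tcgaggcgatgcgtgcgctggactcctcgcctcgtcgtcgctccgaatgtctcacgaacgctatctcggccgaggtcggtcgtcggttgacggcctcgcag
Y67D8A.2, chrIV:3233429-3233529: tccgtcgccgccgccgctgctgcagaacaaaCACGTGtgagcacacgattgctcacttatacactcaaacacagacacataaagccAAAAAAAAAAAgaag
mdt-26, chrII:5661942-5662042: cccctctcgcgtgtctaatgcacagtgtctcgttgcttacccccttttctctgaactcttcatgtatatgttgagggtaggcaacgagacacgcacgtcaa
unc-104, chrII:7001558-7001658: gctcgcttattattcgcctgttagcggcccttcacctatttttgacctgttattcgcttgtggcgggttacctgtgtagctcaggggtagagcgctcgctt
scc-2, chrII:255312-255412: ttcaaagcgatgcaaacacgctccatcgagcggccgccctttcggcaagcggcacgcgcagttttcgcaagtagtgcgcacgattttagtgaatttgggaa
sel-8, chrIII:3623856-3623956: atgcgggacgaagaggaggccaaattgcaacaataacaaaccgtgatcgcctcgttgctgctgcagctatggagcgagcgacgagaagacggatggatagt
Only the Y67D8A.2 window holds capitals, an E box and a run of A, and the other 5 printed windows hold none of the 9 motifs. Within 100 bp of the summit, the range used for the motif shares below, mdt-26 and unc-104 held GGTTCGA on either strand and sel-8 held GAGAGAGA.

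The strongest member, at chrII:9060406-9060889, lay in intron 2 of 2 of T24B8.3, an intron of 760 bp. Its pooled signal was 176, the authors' own peak value, which placed it at rank 123 of the pooled list, and its rank was 128 in replicate 1 and 129 in replicate 2. The non-coding RNA gene T24B8.22 lay 83 bp from this summit. The next member, at rank 127 with a signal of 170.5, lay in intron 8 of 19 of Y67D8A.2, and a second peak of that intron at rank 242 overlapped it. Its rank was 114 in replicate 1 and 183 in replicate 2. Both peaks lay near the non-coding gene Y67D8A.7.

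The Mediator subunit gene mdt-26 held the third, with a signal of 163, in an intron of 386 bp. Its rank was 226 in replicate 1 and 121 in replicate 2. The unc-104 member had a signal of 156, and its summit lay 19 bp from C52E12.T1, which the RefSeq annotation lists as a tRNA pseudogene, a class the position filter did not remove. Ranks of this member were 142 in replicate 1 and 185 in replicate 2. The members of lsy-22, a Groucho-related corepressor gene, and hmr-1, the classical cadherin gene, had signals of 148 and 136. The lsy-22 member stood at rank 137 in replicate 1 and at 259 in replicate 2. For the hmr-1 member the ranks were 167 and 297.

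The remaining hosts among the 20 strongest members include scc-2, the cohesin loader, with a signal of 131, pbrm-1, a polybromo chromatin remodelling subunit, with 129, and let-526, an ARID subunit of the SWI/SNF complex, with 116. The Notch coactivator gene sel-8 held members with signals of 128 and 113, and lit-1, a Nemo-like kinase gene, held one with 115. Members of arf-1, a small GTPase gene of vesicle traffic, and larp-1, a La-related RNA-binding protein gene, had signals of 123 and 117. The chemoreceptor gene srt-52 stood at 124, Y57G11C.22 at 122, miz-1 at 120.2 and K10C3.4 at 114.

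The 20 strongest members fell in 17 genes, all 20 belonged to the set of peaks that the authors kept at their reproducibility threshold, and 7 lay in a first intron. Their ranks ran from 123 to 351, and their introns from 386 to 18310 bp with a median of 4250.5 bp. A non-coding gene lay within 250 bp of 5 of their summits. In both replicate lists, 18 had a summit within 100 bp. The exceptions were larp-1 and K10C3.4, which had no such summit in replicate 2 but overlapped peaks at ranks 595 and 521 there. Over all members, 76 of 398 (19.1%) were in the thresholded set, against 2.94% of the whole pooled list, a share that the choice by signal sets.

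At the edges of the rule, the last member by signal lay in vab-10, a spectraplakin gene, at rank 2997 and 60.00, and the first intron peak left out was in C03A7.13 at rank 3003 and 59.93. The member nearest to an excluded RNA gene was in pop-1, the TCF gene of Wnt signalling, 293 bp from the snoRNA gene W10C8.17, and a peak 204 bp from the tRNA gene B0285.T1 was left out. On the downstream side of the promoter window, gei-4 was kept at 205 bp and dib-1 left out at 198 bp. Upstream, where positions count as negative, the member in ckb-2 was kept at -1066 bp from the 5′ end of ckb-3, and a peak at pigl-1 was left out at -998 bp.

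Strong intron peaks lay in long introns. Of the 398, 395 fell in an annotated intron of a coding transcript, while 3, of which 2 were in cdc-25.2 and 1 in F53H2.3, fell in none. The median length of the introns that held them was 2641 bp (95% interval 2130.0 to 3157, n = 395), with a range from 43 bp in F37C4.6 to 19927 bp in Y48C3A.5. Intron peaks that passed the same position filters at ranks beyond 3000, 5824 in number and called weaker intron peaks below, had a median of 1042 bp (1009 to 1082, n = 5802). All intron bases that passed the filters, the eligible sequence, had a median of 982 bp. These intervals cover counting error over peaks of the same pooled libraries, not variation between embryo cultures, and the same holds for all intervals below.

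The density of members rose with each step of intron length. Eligible introns under 500 bp held 7.42 members per Mb (exact Poisson 95% interval 5.51 to 9.79), and those of 5000 bp or more held 38.1 (31.5 to 45.7). In between it was 9.84 at 500 to under 1000 bp, 12.9 at 1000 to under 2000 bp and 26.1 at 2000 to under 5000 bp. Weaker intron peaks moved much less over the same steps, from 217 to 290.2 per Mb. Introns of 5000 bp or more held 117 of the 395 members (29.6%, 25.2 to 34.4), 15.4% of weaker peaks and 12.4% of eligible bases. The 3 longest introns with a member spanned 19927 bp in Y48C3A.5, 18310 bp in hmr-1 and 17091 bp in T28B11.1.

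**Figure D1:**
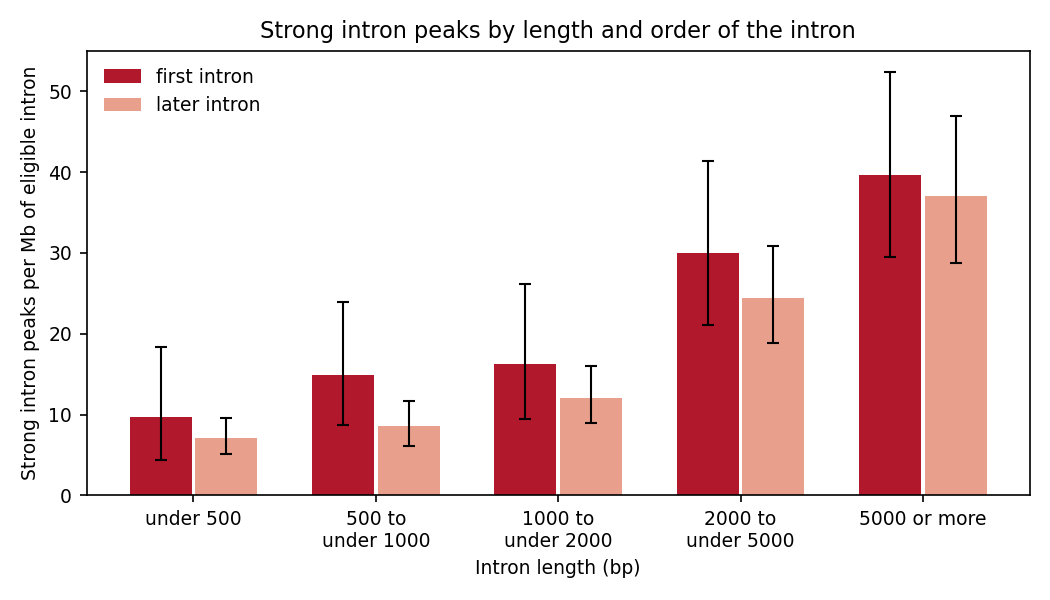
Strong intron peaks per Mb of eligible intron (y axis, from 0) by intron length in bp (x axis), for first introns (dark bars) and later introns (light bars), with exact Poisson 95% intervals. Both sets of bars rise with length, from 9.65 and 7.07 under 500 bp to 39.7 and 37.0 at 5000 bp or more, and the intervals of first and later introns overlap in every class.

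First introns held 130 of the 395 placed members (32.9%, exact Clopper-Pearson 28.3 to 37.8). The share was 23.1% (22.1 to 24.3) of weaker intron peaks and 22.7% of eligible bases. Second introns held 13.7% of members, against 16.6% of weaker peaks, and the last intron of a transcript held 7.85% (31 of 395) against 13.8%. The surplus in first introns was also read by intron length, and whether it differed with length was not tested. Within introns of 2000 bp or more, 39.2% of members (32.7 to 45.9, n = 222) lay in a first intron, close to 35.3% of weaker peaks and 35.1% of eligible bases. Within shorter introns the share was 24.9% (18.6 to 32.0, n = 173), against 17.2% (16.1 to 18.5) and 17.7%. Members in first introns had longer introns, with a median of 4104 bp, than members in later ones, with 2103 bp, and in both classes weaker peaks had shorter ones, 1988 and 938 bp.

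The intron number depends on the transcript that is read, here the one with the greatest exon length. With the transcript that gives the lowest number, 47.1% of members and 33.0% of weaker peaks lay in a first intron. Intron peaks picked anew from the strongest of each replicate list, a set that differs from the members, also lay in longer introns than weaker ones. The intron peaks among the 3000 strongest of replicate 1, 424 in number, had a median intron length of 2362 bp against 1020.0 bp for the weaker ones of that list. In replicate 2 the 448 had 2145 bp against 1036 bp. The first-intron shares were 28.7% (24.4 to 33.2) against 24.1% (23.0 to 25.2) in replicate 1, where the intervals overlap, and 30.4% (26.2 to 34.9) against 22.6% (21.6 to 23.7) in replicate 2.

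Along the pooled list, intron length fell step by step with rank. The 76 thresholded members, which are those of highest signal, had a median of 3922 bp, the other 319 placed members had 2380.0 bp and the 2327 intron peaks beyond rank 20000 had 968 bp. The share in first introns did not follow that order within the members, with 28.9% (19.1 to 40.5) of the thresholded and 33.9% (28.7 to 39.3) of the others.

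**Figure D2:**
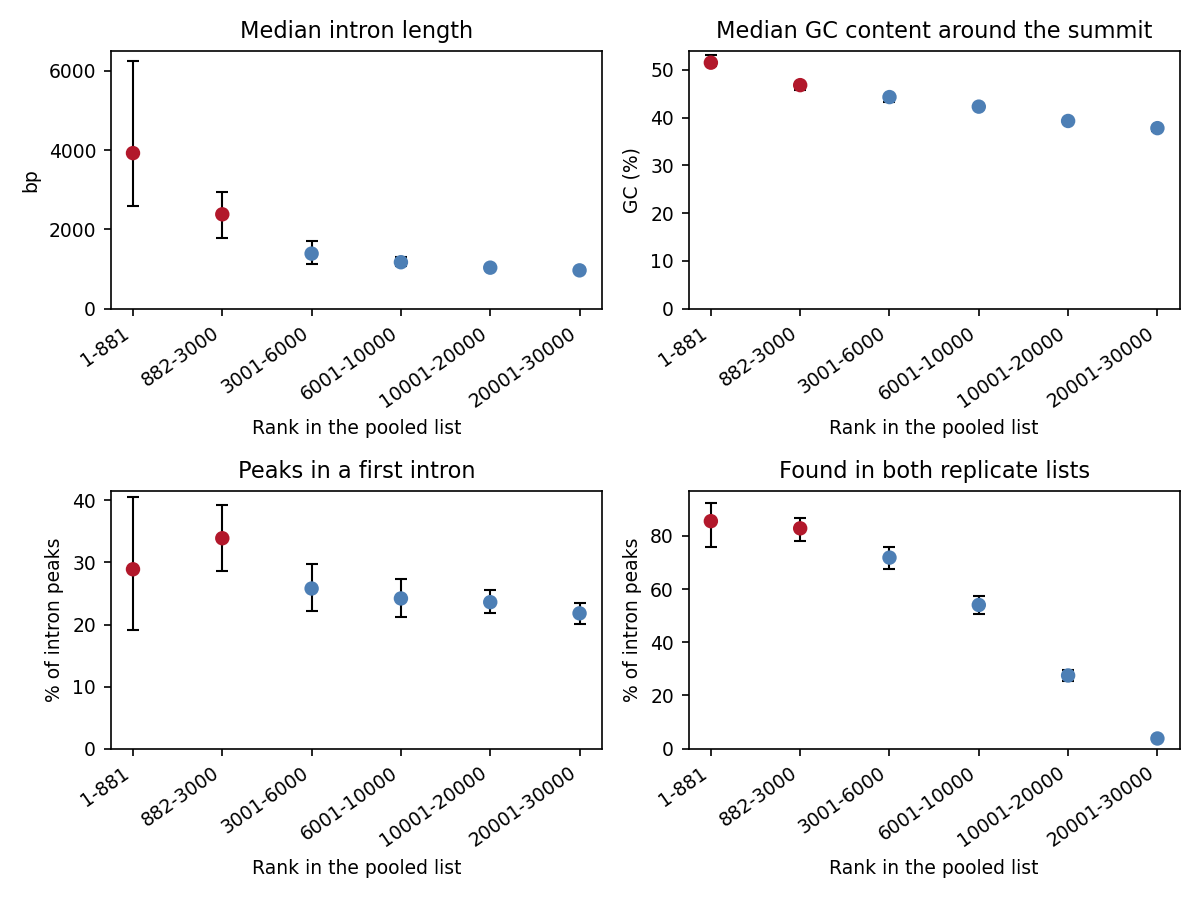
Intron peaks that pass the position filters, by rank in the pooled list (x axis), with members in red and weaker intron peaks in blue. The 4 panels give median intron length in bp, median GC content in %, the share in a first intron in % and the share found in both replicate lists in %, with 95% intervals, and from the left to the right end they pass from 3922 to 968 bp, 51.5 to 37.8% GC, 28.9 to 21.8% and 85.5 to 3.82%.

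Member summits lay farther from splice sites than weaker ones, a measure that also grows with intron length. The summit lay within 100 bp of a splice site in 15.7% of members (12.3 to 19.7), in 31.0% of weaker peaks and in 31.6% of eligible bases. The median distance to the nearest splice site was 621 bp for members and 219 bp for weaker peaks. In introns of 2000 bp or more, where length differs less, it was 1401 bp (1173 to 1593) for members, 1119 bp (1068 to 1188) for weaker peaks, with overlapping intervals, and 1012 bp for eligible bases. The whole peak, 484 bp wide in every member, fitted inside the intron for 68.9% of members and 47.2% of weaker peaks. Summits had no lean to either end, with a median relative position of 0.502 from the 5′ splice site (0) to the 3′ splice site (1).

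Many genes have transcripts that start inside the gene, and the promoter filter used only the outermost 5′ end of each gene. The same window around the 5′ end of any coding transcript held 78 of the 398 members (19.6%, 15.8 to 23.8), 14.1% (13.2 to 15.0) of weaker intron peaks and 10.9% of eligible bases. Among the strongest were those in T24B8.3, scc-2, pbrm-1 and arf-1. The other 320 members lay outside every such window, and their medians stayed close to those of all members, with an intron length of 2733 bp and a GC content of 47.3%. Non-coding genes of classes that the rule did not exclude lay within 250 bp of 46 members (11.6%, 8.59 to 15.1), of 6.15% (5.54 to 6.79) of weaker peaks and of 25.6% of the other peaks among the 3000 strongest. Only the last group can hold summits inside exons of non-coding genes, which the rule removed from members and weaker peaks. For 38 of the 46 the nearest was annotated as ncRNA, for 3 as a miRNA and for 2 as a piRNA. Of the 358 weaker peaks with such a gene, it was ncRNA for 252, a miRNA for 11 and a piRNA for 66. A member in the longest intron of hmr-1, at chrI:11096887-11097370, lay 74 bp from cel-mir-8190, for example.

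On the chromosomes, 74.4% of members (69.8 to 78.6) lay in the arms, taken as the outer parts that remain when the middle of each chromosome, as long as either arm, is set aside, against 77.0% of weaker peaks and 72.8% of eligible bases. The other peaks among the 3000 strongest had 64.3%. Members were densest on chromosome III, with 21.1 per Mb of eligible intron (17.2 to 25.7), and sparsest on V, with 9.92 (7.41 to 13.0). Chromosome I had 16.2 and chromosome IV had 13.8. Weaker intron peaks followed a similar order, from 278 per Mb on III and 264 on II to 189.9 on IV and 196 on V. Centres and arms had 15.2 and 16.3 members per Mb, with overlapping intervals.

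Members stood on GC-rich stretches of AT-rich introns. The median GC content within 100 bp of the summit was 47.8% (46.8 to 48.3, range 28.4 to 78.6), against 39.3% (39.3 to 39.8) in weaker intron peaks and 48.8% in the other peaks among the 3000 strongest. Windows of the same size that tile the eligible sequence, 78497 in number, had a median of 32.3%. At least 45% GC was found in 65.3% of members, 22.8% of weaker peaks and 6.25% of tiles. For 270 members the same intron also reached 500 to 1000 bp from the summit, and 251 of these (93.0%, 89.2 to 95.7) had more GC at the summit than there. The median difference was 11.2 percentage points, with a lower bound of 9.95, against 4.34 (3.96 to 4.86) in weaker peaks. ChIP-seq libraries can favour GC-rich fragments, and the control's values were not analysed here, so the part of GC in the signal was not tested.

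**Figure D3:**
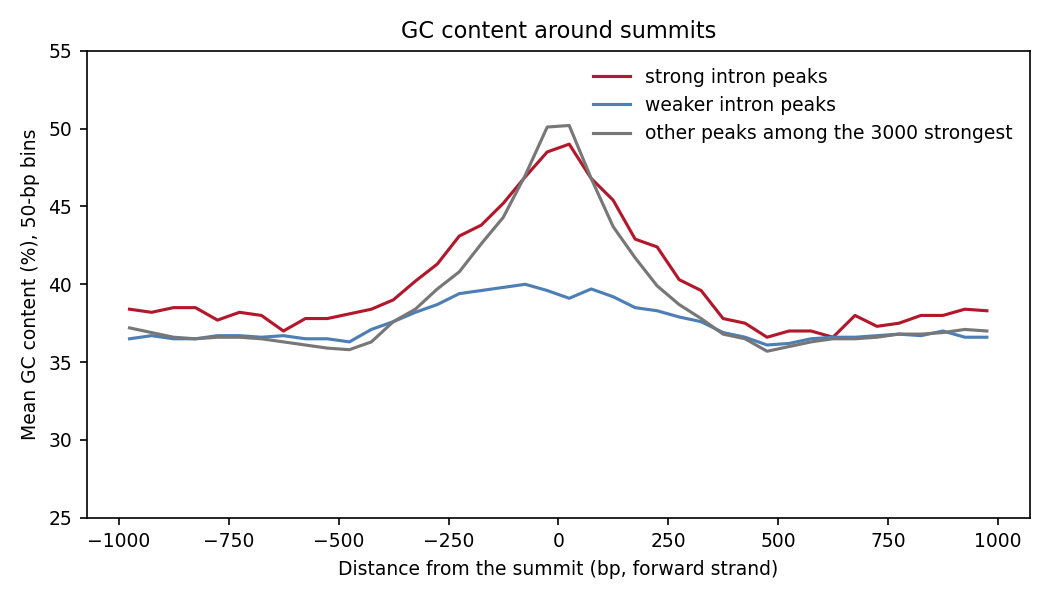
Mean GC content in % in bins of 50 bp (y axis, from 25 to 55) by distance from the summit in bp (x axis), for strong intron peaks (red), weaker intron peaks (blue) and the other peaks among the 3000 strongest (grey). Strong intron peaks and the other strong peaks rise to a sharp maximum at the summit, whereas weaker intron peaks form a low plateau.

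Across members, Spearman's rank correlation between GC content and intron length was 0.010 (n = 395, peaks of the same libraries). In the ranges of GC content that hold most members, these still lay in longer introns than weaker peaks. At 35 to under 45% GC, members had a median intron length of 2916 bp (2130.0 to 3910.0, n = 124) and weaker peaks had 1103 bp. At 45 to under 55% the values were 2733 bp (2101 to 3890.0, n = 206) and 1156 bp. At 55% and over the intervals overlapped, with 2026 bp (615 to 3760.0, n = 52) against 826 bp (633 to 1028). At under 35% only 13 members remained, and their 939 bp was close to the 950.0 bp of weaker peaks.

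Short tandem repeats marked a part of the members. Of 9 motifs searched on both strands within 100 bp of the summit, the GA repeat GAGAGAGA was found in 55 members (13.8%, 10.6 to 17.6), in 3.18% (2.74 to 3.66) of weaker intron peaks and in 1.43% of eligible tiles. The CA repeat CACACACA was found in 49 members (12.3%, 9.25 to 15.9), in 3.21% of weaker peaks and in 1.41% of tiles. The CG run CGCGCG was found in 7.54% of members, 2.92% of weaker peaks and 1.44% of tiles. In the other peaks among the 3000 strongest these motifs stood at 8.65%, 6.15% and 6.61%. One member was picked as an example of each, with the motifs in capitals. It is the strongest one on chromosomes II to V that was not yet shown and holds the motif within 50 bp of the summit, so that stronger members with the motif farther out were passed over.
K01F9.2, chrIII:8874385-8874485: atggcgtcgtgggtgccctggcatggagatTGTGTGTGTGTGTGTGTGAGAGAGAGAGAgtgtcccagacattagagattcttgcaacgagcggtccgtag
zfp-1, chrIII:8801977-8802077: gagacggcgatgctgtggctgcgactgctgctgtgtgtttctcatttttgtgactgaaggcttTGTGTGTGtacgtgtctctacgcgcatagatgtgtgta
miz-1, chrIV:10817214-10817314: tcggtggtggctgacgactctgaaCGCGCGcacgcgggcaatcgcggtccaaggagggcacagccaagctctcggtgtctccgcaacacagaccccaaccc
The K01F9.2 window holds the GA repeat directly beside a CA repeat, which reads TG on the printed strand. The zfp-1 window, in the gene of an AF10-like chromatin protein, holds a CA repeat and the miz-1 window a CG run.

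Within matched ranges of GC content the repeats and the CG run parted. At 35 to under 45% GC, the GA repeat was found in 13.6% of members (8.13 to 20.9, n = 125) and 3.73% of weaker peaks (3.07 to 4.49), and the CA repeat in 15 of the 125 members (6.87 to 19.0%) and 3.28% (2.67 to 4.00). At 45 to under 55% they stood at 14.4% (9.95 to 19.9, n = 208) against 5.33% (4.13 to 6.76), and at 13.9% (9.54 to 19.4) against 6.25% (4.95 to 7.77). The CG run did not differ in either range, with 2.40% against 2.46% and 6.25% against 6.67%. The AT-rich motifs, fewer in members at first, came level too. The T run TTTTTTTT was found in 11.1% of members and 20.4% of weaker peaks in all windows, but at 35 to under 45% GC in 17.6% of members and 521 of 2892 weaker peaks. TATAAA, at 8.54% of members and 15.5% of weaker peaks in all windows, stood at 14.4% and 13.8% there.

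Motifs of known factors were rare. TGATAA, the site of GATA factors of the gut, was found in 6.03% of members and 11.7% of weaker peaks, and in 10.4% and 11.9% at 35 to under 45% GC. The E box CACGTG, read by basic helix-loop-helix factors, was found in 4.52% and 4.10%. GGTTCGA, the core of the B box of tRNA genes, was found in 2.01% of members (0.872 to 3.92) and 7.19% of the other strong peaks, from which tRNA genes were not removed. The TA repeat TATATATA was found in 1.26% of members and 0.824% of weaker peaks.

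**Figure D4:**
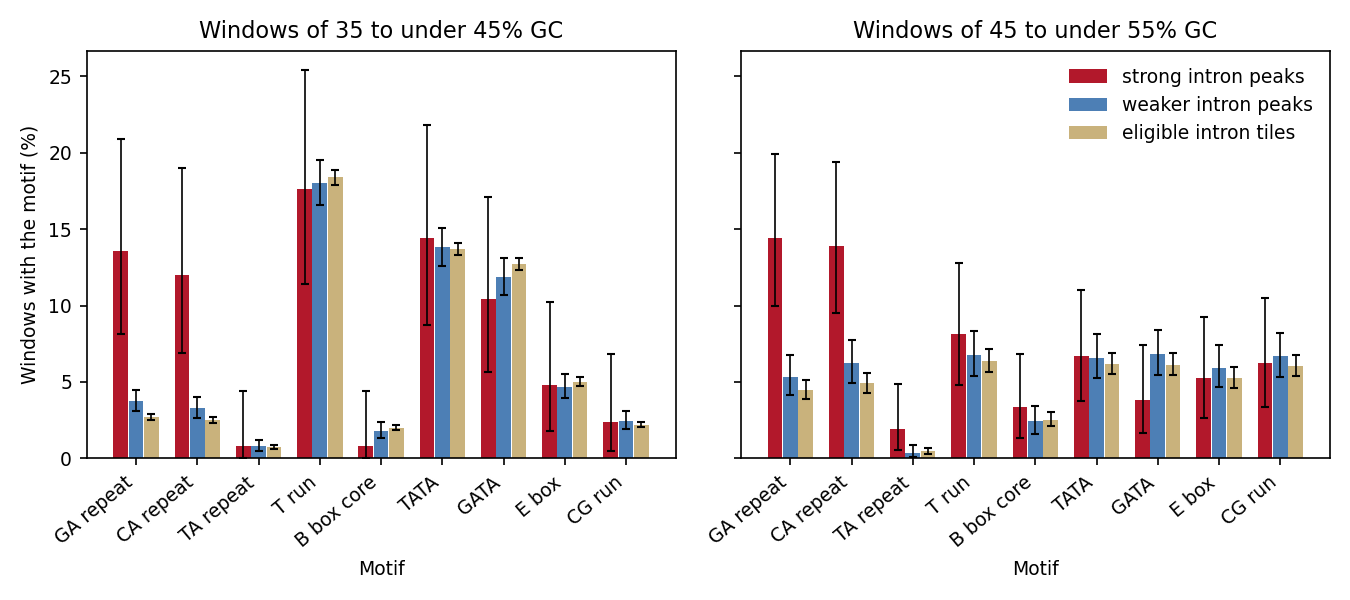
Share of windows, 100 bp to each side, in % that hold each of 9 motifs (y axis, from 0) at 35 to under 45% GC (left) and 45 to under 55% GC (right), for strong intron peaks (red), weaker intron peaks (blue) and tiles of eligible intron (tan), with exact 95% intervals. The GA and CA repeats stand above both references in both ranges, with the GA repeat at 13.6% on the left and 14.4% on the right, and the CG run, T run and TATA bars are level.

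A GA or CA repeat was found in 95 of the 398 members (23.9%, 19.8 to 28.4), in 6.10% of weaker peaks and in 2.72% of tiles, and 9 members held both. The members with a repeat sat in longer introns, with a median of 4330.0 bp (3536 to 5557), than the 300 placed members without one, with 1957 bp (1695 to 2598). In introns under 1000 bp, 6.54% of members (2.67 to 13.0, n = 107) held a repeat, against 1.86% of weaker peaks and 1.08% of tiles. In introns of 5000 bp or more it was 35.9% (27.2 to 45.3, n = 117), against 13.0% (10.9 to 15.4) and 6.07%. Median GC content was 47.8% with and without a repeat. On the strand of the host transcript, the GA repeat read TCTCTCTC in 36 members, GAGAGAGA in 16 and both ways in 3, and the CA repeat read TGTGTGTG in 28, CACACACA in 19 and both ways in 2. Strands were not counted in weaker peaks or tiles, so whether this split is particular to members was not tested.

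All 6-letter words were also counted in the same windows, without matching for GC content, so this scan is not independent of the motif counts. AGAGAG was found in 31.2% of members and 12.3% of weaker peaks, ACACAC in 25.4% and 9.56%, and AAAATT in 23.6% and 61.2%. The other strong peaks held AGAGAG nearly as often, at 27.1%, and GAGAGA at 32.2%, against 32.4% of members. Soft-masked sequence, which the RefSeq genome marks as repetitive or of low complexity, took up a median of 15.7% of member windows and 33.3% of weaker ones.

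The 395 placed members lay in 297 host genes and 336 introns, where overlapping introns of different transcripts with other ends count separately. Of the hosts, 234 held 1 member, 41 held 2 and 22 held 3 or more, which together account for 79 members. After overlapping peaks were merged, 383 separate regions remained. Hosts were long, with a median gene length of 9450 bp against 2226 bp over the 15014 autosomal coding genes with eligible sequence. A weaker intron peak also lay in 236 of the 297, against 3166 of the 15014 genes, without matching for gene length. Members of the 22 hosts with 3 or more had a median intron length of 5557 bp and a GC content of 49.8%, and 36.7% of them held a GA or CA repeat.

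The gene with the most members was mbk-2, a DYRK-family kinase gene needed for the change from oocyte to embryo, with 6 members in 3 introns of 4290 to 8718 bp. The intron of 4290 bp lies inside one of 6975 bp that belongs to another transcript. The signals of the 6 members ran from 62.1 to 78.0, and none was in the thresholded set. The sel-8 gene held 5 members, all in its first intron of 8533 bp, with signals from 60.4 to 128. The polyglutamine protein gene pqn-41 held 5 in a single intron of 10372 bp, number 14 of 22, with signals from 74.5 to 101. Members of both genes included overlapping pairs.

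Another 6 genes held 4 members each. In lsy-22 all 4 lay in the first intron of 11392 bp, with signals from 87.1 to 148. In hmr-1 they lay in introns 21 and 22 of 30, with signals of 136, 107, 78.0 and 67.7. The gene hlh-30, of the worm homolog of the lysosome regulator TFEB, held 4 in its first and second introns, with signals from 61.1 to 99.0. Unlike these, din-1, a SHARP-like corepressor gene that acts with a nuclear receptor, spread its 4 over 4 introns of 743 to 4003 bp. The Tousled-like kinase gene tlk-1 held 3 of its 4 in a first intron of 4747 bp, and Y111B2A.12 held all 4 in an intron of 7076 bp. The gene miz-1 held 3 in intron 4 of 10, which spans 8501 bp.

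Hosts were counted over 12 gene lists. These lists are partial, so the count of a list covers its listed genes only. Of all 15014 genes with eligible sequence, 297 (1.98%) held a member, a density of 16.0 members per Mb. Of 125 genes of cell adhesion and axon guidance, 17 (13.6%, 8.13 to 20.9) did, at 43.3 per Mb. The median eligible sequence of these genes was 2769 bp, against 681 bp over all genes, and weaker intron peaks were denser in them too, at 419.7 against 235 per Mb. Their strongest were in hmr-1, in lron-11, a leucine-rich repeat gene, with a signal of 103, and in sax-7, the L1CAM gene, with 98.9. Chosen after their values were seen, the ephrin gene vab-2 and the Eph receptor gene vab-1 held 3 members each.

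Transcription factors were counted by family, and the difference between families was not tested. Of 84 zygotic factors outside the homeobox and nuclear receptor families, 9 (10.7%, 5.02 to 19.4) held a member, at 58.1 per Mb, led by daf-16, the FOXO factor of insulin signalling, hlh-30 and the forkhead gene fkh-7. Listed homeobox genes had 3 of 69 (4.35%, 0.906 to 12.2), with overlapping intervals. These were unc-62, a Meis homolog, zag-1, a ZEB homolog, and nob-1, a posterior Hox gene. Some hosts are on neither list, such as the zinc finger homeobox gene zfh-2 and the transcription factor gene daf-19. Nuclear hormone receptors had 5 of 243 (2.06%, 0.671 to 4.74), led by nhr-23, which acts in moulting, nhr-64 and nhr-88. The density was 29.9 per Mb in homeobox genes and 18.9 in nuclear receptors. Weaker intron peaks stood at 407 per Mb in the first list, 317 in homeobox genes and 214 in nuclear receptors, against 235 over all genes. Of the 15 members of the first list, 4 were in hlh-30.

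Of 93 listed genes of kinases, phosphatases and GTPase regulators, 10 (10.8%, 5.28 to 18.9) held a member, at 21.5 per Mb. Their median eligible sequence was 3081 bp, and par-1, the polarity kinase gene, was among the hosts. This list also holds phosphodiesterase genes, such as pde-1. It leaves out the kinase genes mbk-2, tlk-1 and lit-1 named above, so its values do not describe all kinase genes. Of 59 maternal and germline factors, 5 (8.47%, 2.81 to 18.7) did. Their density of 77.4 per Mb rested on 11 members, of which 6 were in mbk-2, and par-1 and mex-3, which encodes a KH-domain RNA-binding protein, were among the hosts. Weaker intron peaks stood at 436 per Mb in this list, against 235 over all genes. Muscle and sarcomere genes had 3 of 45, which were vab-10, the titin gene ttn-1 and the kettin gene ketn-1, at 18.5 per Mb. Some genes stand on more than 1 list, such as par-1, skn-1 and vab-10.

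The remaining lists had fewer members per Mb than the 16.0 over all genes, but each held 5 members or fewer. No interval was computed for the density of a gene list, so these differences were not tested. Their shares of genes differed. Synapse genes had 2 of 46 (4.35%, 0.531 to 14.8), unc-104 and unc-43, the CaMKII gene, at 6.31 per Mb, and their median eligible sequence was 4616 bp. Ion channels and transporters had 4 of 185 (2.16%, 0.592 to 5.44), led by lev-1, a nicotinic receptor subunit gene, lgc-31 and trp-4, at 5.84 per Mb. Chemoreceptors had 5 of 1191 (0.420%), led by srt-52, srh-296 and srx-77, at 5.98 per Mb. Listed genes of RNA processing and nuclear export, the pathway of ALY-1 itself, had 1 of 113 (0.885%, 0.0224 to 4.83), at 3.82 per Mb. The host was the CELF-type splicing factor gene unc-75. Other hosts of RNA processing, such as snrp-40.2 and drsh-1, are not on this list, so its share does not describe the whole pathway. Ribosomal protein genes had 0 of 33, which allows a share of up to 10.6%, but held only 0.00394 Mb of eligible intron. No member lay within 40 kb of aly-1 or unc-119, the genes carried on the transgene.

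Of the 398 members, 330 (82.9%, 78.8 to 86.5) had a summit within 100 bp in both replicate lists. The share was 32.9% over the whole pooled list, 85.2% in the other peaks among the 3000 strongest and 25.7% in weaker intron peaks. Each pooled peak holds the reads of both replicates, so these shares are not independent of the choice. Replicate 1 held 88.2% of members and replicate 2 held 94.7%. In neither list were 0 of 398, which allows a share of up to 0.923%. A rank among the 3000 strongest of both replicates was reached by 130 members (32.7%), against 38.7% of the other strong peaks and 3.80% of the pooled list.

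Peaks chosen in one replicate alone were also looked up in the other. Both lists were made against the same control, and its part in what they share was not tested. Of the 424 intron peaks chosen in replicate 1, 65.1% (60.3 to 69.6) had a summit within 100 bp in replicate 2, and 31.4% (133 of 424) were among its 3000 strongest. For weaker intron peaks of replicate 1 the shares were 26.3% and 2.62%. Of the 448 chosen in replicate 2, 62.3% (57.6 to 66.8) were found in replicate 1 and 29.2% (25.1 to 33.7) among its strongest, against 1497 and 146 of 5978 weaker ones. The other peaks among the 3000 strongest of each list were found more often, at 69.9% (68.1 to 71.6) and 70.4% (68.6 to 72.2), although in the first direction the intervals overlap.

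**Figure D5:**
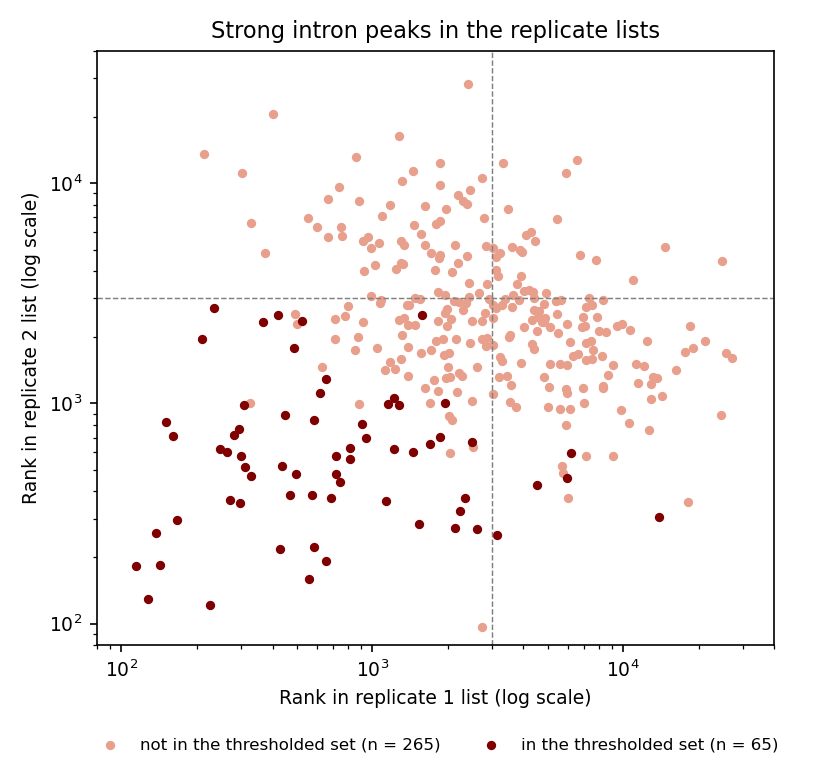
Rank in replicate 1 (x axis, log scale) and in replicate 2 (y axis, log scale) of the 330 members found in both lists, with thresholded members in dark red and the others in light red. Dashed lines mark rank 3000, and most thresholded members lie below and to the left of both lines.

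Among the 330 members found in both lists the order was not shared, with a rank correlation of 0.038 between the replicate ranks, but a choice on the pooled signal narrows the range and favours peaks that are high in one list when low in the other. The widest gaps were in mbk-2, at rank 214 in replicate 1 and 13536 in replicate 2, in Y111B2A.12, at 401 and 20688, and in dre-1, an F-box gene of developmental timing, at 18101 and 356. The signals were 60.2 and 21.8 for mbk-2, 50.7 and 17.8 for Y111B2A.12, and 15.3 and 66.7 for dre-1. Members found in 1 list only had a median intron length of 3165 bp and GC content of 47.0%, close to the 2598 bp and 47.8% of those found in both.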

How the data were processed

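The authors deposited narrowPeak lists on ce11, 30000 candidate peaks for each of 2 replicates and for both pooled, and a set of peaks kept at a reproducibility threshold. The signal of each peak is a value deposited by the authors' caller, relative to a control in a way that is not given in the sources used here, and served to rank peaks inside a list. The −log10 q-value that the authors deposited ranged from 0.0543 to 2.73 in the pooled list, so the list includes background. Neither aligner nor depth is stated there, and 1 control alignment served both replicates. Lists on ce10 were not used.

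Positions were taken from Ensembl release 115 of WBcel235, whose coordinates are those of ce11, and sequence from the RefSeq genome of the same assembly. An exon of any gene excluded a summit. Where transcripts differ, the one with the greatest exon length set the intron, and where hosts overlap, the shorter intron. Shares carry exact Clopper-Pearson intervals, densities exact Poisson intervals and medians distribution-free binomial intervals, all at 95%. Densities of gene lists carry no interval. The lookup of introns and filters was tested on simulated data. No test between groups exists with 1 group, and no p-value was computed. Members, gene lists and motifs were chosen with earlier results of these data known. Genes named are hosts of the 20 strongest members, the 10 hosts with most members, up to 3 hosts of each list, the 3 widest replicate gaps, the 3 longest introns and those at the edges of the rule. A host of 1 list is not reported here. Genes named otherwise place a summit, an extreme value or a gene on several lists, or show a gap in a list. Others, as vab-1 and vab-2, were chosen after their values were seen. Software was Python 3.11.15 with scipy 1.17.1, pandas 2.3.3 and numpy 2.4.6.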

Additional observations from a re-analysis of the deposited data

How the results depend on the processing

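Values depend first on how many peaks are called strong. With as many peaks as the thresholded set, with 1500 and with 6000 there were 76, 166 and 924 members, with median intron lengths of 3922, 3840.0 and 1905 bp and GC contents of 51.5%, 50.5% and 45.8%. The share in chromosome arms was 60.5% with the first of these, the share in both replicate lists was 76.6% with 6000, and the GA repeat was found in 19.3% with 1500 and 9.74% with 6000. Counting only exons of coding genes put 69.5% in arms, and arms shortened so that the middle takes up as much as both held 54.0%. The first-intron share was 47.1% with the lowest intron number. The share in both lists was 99.2% when any overlap counted, 97.2% at an overlap of 50% and 58.8% for summits at most 50 bp apart. GC content was 49.5% within 50 bp and 45.1% within 250 bp. With 1 replicate left out, taking the other's list alone, member numbers were 424 to 448, first-intron shares 28.7% to 30.4%, lengths 2145 to 2362 bp, arm shares 74.1%, GC contents 46.3% and GA repeat shares 10.1% to 13.8%. Of 92 values recomputed, 68 stayed within the main interval, or within 1.5 times for counts of members. The cause of the changes was not tested. Windows at every coding transcript start, removal of members near non-coding genes and all recomputed GA shares were chosen after seeing the data.

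No paired analysis was possible because there is only 1 group. Without depth or control values, the precision of a single peak is unknown.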
